A study of Mus musculus with 2 samples.

Results

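Hypoxia-high tumour cells were taken from 2 single-cell RNA libraries of 4T1 tumours grown in BALB/c mice. 4T1 is a transplantable line of triple-negative mouse mammary carcinoma. The AptCD4-LNT library came from mice dosed with AptCD4-LNT by cell number, with doses of 5000000, 4000000 and 3000000 cells given 3 days apart, and the Untreated library came from mice that received PBS. Tumours were collected at 9 days and 3 were pooled before sequencing in each library, so there is 1 library per group and no tumour can be told from another. The labels give no age and do not spell out what AptCD4-LNT stands for.

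Tumour cells were barcodes with 3000 or more unique molecular identifiers (UMIs, 1 per captured RNA molecule), at most 20% mitochondrial UMIs, at least 5 UMIs and 10 per 10000 of the keratins Krt8 and Krt18, no UMI of the leukocyte gene Ptprc, and limits on fibroblast collagen (Col1a1 plus Col3a1 under 20 per 10000) and neutrophil S100 genes (S100a8 plus S100a9 under 50 per 10000). The rule kept 11491 of 28971 barcodes, 3380 from the AptCD4-LNT library and 8111 from the Untreated library. A score, the summed UMIs per 10000 of Car9, Adm, Egln3, Gbe1 and Ndrg1, was then ranked over both libraries together, and hypoxia-high cells were chosen by this score as the highest 10%. These were 1149 cells, 231 from the AptCD4-LNT library and 918 from the Untreated library. The other 10342 tumour cells, 3149 from the AptCD4-LNT library and 7193 from the Untreated library, were the comparison.

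Cells sense oxygen through prolyl hydroxylases of the EGLN family, which mark the alpha subunits of hypoxia-inducible factors (HIF) for destruction by the VHL ubiquitin ligase while oxygen is present. When oxygen falls, HIF accumulates and binds short elements that contain ACGTG or GCGTG, and genes of glucose uptake, glycolysis, acid export, vessel growth and mitochondrial turnover are transcribed. Tumours that outgrow their blood supply hold such cells at a distance from vessels. Of the score genes, Car9 encodes a carbonic anhydrase at the cell surface that handles acid, Adm encodes the vasodilator peptide adrenomedullin, Egln3 an oxygen-sensing prolyl hydroxylase, Gbe1 the glycogen branching enzyme, and Ndrg1 a stress-induced protein used as a hypoxia marker.

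The 250 bases before the annotated start of 4 score genes and of Ero1a and Bnip3, HIF-induced genes that were far higher in these cells, are shown because the selection rests on a shared response for which such elements are the known route. The promoter sequences used held none for Ndrg1, the score gene that carried most of the score, so its window is not shown. Sequences are from RefSeq on build GRCm38.p6, written 5′ to 3′ on the gene's strand, whereas the counts were made on GRCm39. Capitals mark ACGTG or GCGTG on either strand (a match on the other strand reads CACGT or CACGC), and overlapping matches run together.
Car9 chr4:43506776-43507025 (plus strand): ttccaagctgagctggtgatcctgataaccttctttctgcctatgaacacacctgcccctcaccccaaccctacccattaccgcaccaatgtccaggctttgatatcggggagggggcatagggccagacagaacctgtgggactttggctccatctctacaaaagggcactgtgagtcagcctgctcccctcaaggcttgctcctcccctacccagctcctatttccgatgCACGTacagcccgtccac
Adm chr7:110627407-110627656 (plus strand): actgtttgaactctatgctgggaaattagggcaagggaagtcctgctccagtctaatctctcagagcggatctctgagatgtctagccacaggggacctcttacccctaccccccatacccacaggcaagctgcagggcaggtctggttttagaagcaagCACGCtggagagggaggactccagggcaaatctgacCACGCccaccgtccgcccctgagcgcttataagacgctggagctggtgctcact
Egln3 chr12:54203875-54204124 (minus strand): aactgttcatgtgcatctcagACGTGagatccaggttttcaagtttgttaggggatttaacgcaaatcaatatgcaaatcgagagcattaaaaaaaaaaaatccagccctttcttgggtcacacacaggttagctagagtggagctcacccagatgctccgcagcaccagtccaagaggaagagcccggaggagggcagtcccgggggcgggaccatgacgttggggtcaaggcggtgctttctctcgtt
Gbe1 chr16:70313699-70313948 (plus strand): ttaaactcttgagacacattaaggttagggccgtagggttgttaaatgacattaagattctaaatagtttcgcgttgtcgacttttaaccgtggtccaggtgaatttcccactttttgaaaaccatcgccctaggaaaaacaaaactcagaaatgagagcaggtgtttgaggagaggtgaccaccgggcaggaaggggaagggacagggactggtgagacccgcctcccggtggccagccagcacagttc
Ero1a chr14:45318573-45318822 (minus strand): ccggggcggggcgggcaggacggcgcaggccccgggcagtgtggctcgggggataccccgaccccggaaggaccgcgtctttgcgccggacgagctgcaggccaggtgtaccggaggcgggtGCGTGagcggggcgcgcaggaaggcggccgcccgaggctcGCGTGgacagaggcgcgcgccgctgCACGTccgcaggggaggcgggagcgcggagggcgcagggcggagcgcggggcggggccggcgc
Bnip3 chr7:138909507-138909756 (minus strand): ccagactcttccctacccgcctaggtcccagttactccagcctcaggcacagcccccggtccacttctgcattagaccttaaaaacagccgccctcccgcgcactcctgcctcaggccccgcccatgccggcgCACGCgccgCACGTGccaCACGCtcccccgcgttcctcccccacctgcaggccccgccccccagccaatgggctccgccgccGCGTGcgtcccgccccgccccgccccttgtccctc
Car9 and Egln3 each held 1 ACGTG, Adm held 2 GCGTG, Ero1a held 3 matches and Bnip3 held 5, while neither motif was in the Gbe1 window. At least 1 of the motifs was in 38.6% of all 32851 promoter windows of this length, in 76% of the 25 windows that matched the list of other HIF-induced genes, in 77.4% of 31 windows of glycolysis genes and in 70% of 10 windows of mitosis genes. Mitosis genes, which were lower in these cells, thus held the motifs too. A match describes letters only and is not evidence of binding.

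The libraries differed in depth, and that bears on every comparison between them. Hypoxia-high cells had a median of 14635 UMIs and 3963 genes in the AptCD4-LNT library, against 6800 UMIs and 2552 genes in the Untreated library. Other tumour cells had a median of 17924 UMIs in the AptCD4-LNT library and 8327 in the Untreated library, so hypoxia-high cells were the shallower cells in both. The mitochondrial share had a median of 2.11% in AptCD4-LNT and 1.94% in Untreated hypoxia-high cells, against 2.32% in AptCD4-LNT and 2.26% in Untreated other tumour cells. The libraries had 42 barcodes in common, 6 of them among tumour cells and 0 among hypoxia-high cells. Summed over cells, hypoxia-high cells held 3477089 UMIs in the AptCD4-LNT library and 7496671 in the Untreated library. Expression levels are given as CPM, for which a group's cells were added up and scaled to a total of 1000000 UMIs. With 1 library per group no test was possible, and each 95% interval in parentheses covers counting error only, not differences between cells, tumours or libraries.

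Ndrg1 carried most of the score. It gave 79.4% of the score UMIs of AptCD4-LNT hypoxia-high cells and 78.3% of those of Untreated hypoxia-high cells, and it was the leading score gene in 230 of 231 AptCD4-LNT and 915 of 918 Untreated ones. The score is therefore largely an Ndrg1 level. The other 4 genes were often found in the same cells. Selection on the sum of the 5 genes favours this by construction, so the shares below are descriptive. At least 3 of the 5 genes had a UMI in 94.8% of AptCD4-LNT and 86.1% of Untreated hypoxia-high cells, against 54.8% of AptCD4-LNT and 42.2% of Untreated other tumour cells. After each cell was thinned to 3000 UMIs the shares were 55.4% of AptCD4-LNT and 57.6% of Untreated hypoxia-high cells, against 8.35% of AptCD4-LNT and 12.7% of Untreated other tumour cells.

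The score had no gap at the threshold. The last cell taken had 28.7065 per 10000 and the first left out had 28.7054, and 214 cells lay within 10% above the threshold and 242 within 10% below it. The median score was 37.4 per 10000 in AptCD4-LNT and 38.5 in Untreated hypoxia-high cells, against 5.32 in AptCD4-LNT and 5.59 in Untreated other tumour cells. The cells are thus the upper end of a continuous range. By construction the score genes were higher in the selected cells, and their levels are given as a description. Ndrg1 was at 3361 CPM in hypoxia-high and 457 CPM in other tumour cells of the AptCD4-LNT library, and at 3380 CPM in hypoxia-high and 504 CPM in other tumour cells of the Untreated library. Adm was at 240 CPM in hypoxia-high and 21.4 CPM in other cells of the AptCD4-LNT library, and at 286 CPM in hypoxia-high and 49.5 CPM in other cells of the Untreated library. Car9 reached 271 CPM in AptCD4-LNT and 295 CPM in Untreated hypoxia-high cells, Egln3 reached 276 CPM in AptCD4-LNT and 226 CPM in Untreated, and Gbe1 reached 82.0 CPM in AptCD4-LNT and 132 CPM in Untreated.

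The hypoxia label was checked on HIF-induced genes that the rule did not use, although the cells and the contrast were the same. Vegfa, the main vessel growth factor, was at 377 CPM in AptCD4-LNT hypoxia-high cells and 87.8 CPM in the library's other tumour cells, and at 375 CPM in Untreated hypoxia-high cells and 87.2 CPM in the others. Slc2a1, the glucose transporter GLUT1, was at 535 CPM in hypoxia-high and 92.7 CPM in other cells of the AptCD4-LNT library, and at 625 CPM in hypoxia-high and 136 CPM in other cells of the Untreated library. Ero1a, an oxidase of disulfide bond formation in the endoplasmic reticulum, was at 1221 CPM in hypoxia-high and 161 CPM in other cells of the AptCD4-LNT library, and at 1409 CPM in hypoxia-high and 250 CPM in other cells of the Untreated library. For all 3 genes hypoxia-high cells were the higher group in each library. A UMI of Vegfa was found, after thinning, in 55.8% of AptCD4-LNT and 60.0% of Untreated hypoxia-high cells, against 19.7% of AptCD4-LNT and 21.05% of Untreated other tumour cells. In T cells, taken as background, the thinned shares were 2.86% of 35 cells in AptCD4-LNT and 5.26% of 95 cells in Untreated. Their median depths were 5450 UMIs in AptCD4-LNT and 4385 UMIs in Untreated. Other cell types were not as low. Thinned shares were 33.9% in AptCD4-LNT and 48.4% in Untreated among all cells with Ptprc and no Krt8 or Krt18. Among fibroblasts they were 23.5% in AptCD4-LNT and 35.0% in Untreated, so a UMI of Vegfa was not particular to tumour cells. Without thinning the Vegfa shares were 91.3% of AptCD4-LNT and 84.2% of Untreated hypoxia-high cells and 58.3% of AptCD4-LNT and 43.8% of Untreated other tumour cells. In T cells they were 5.71% in AptCD4-LNT and 7.37% in Untreated. Of the epithelial genes outside the rule, 8 of 11 had enough UMIs to compare in each library, among them Epcam at 934 CPM in AptCD4-LNT and 885 CPM in Untreated hypoxia-high cells. Krt5 and Krt6a were at or near 0 in all 4 groups.

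Ero1a and Vegfa followed the score below the threshold as well as above it. In 8 bins of rising score, Ero1a went up at every step in both libraries, reaching 1607 CPM in the highest bin of the AptCD4-LNT library and 1742 CPM in that of the Untreated library, with 57.6 CPM in AptCD4-LNT and 68.0 CPM in Untreated cells of the lowest bins. Vegfa reached 457 CPM in AptCD4-LNT and 473 CPM in Untreated cells of the highest bins, with 50.5 CPM in AptCD4-LNT and 41.0 CPM in Untreated cells of the lowest. Hilpda did not do so in the AptCD4-LNT library, where its level was 39.8 to 43.2 CPM in the lowest 3 bins and 257 CPM in the highest. Top2a, a topoisomerase of dividing cells, ran the other way, at 72.5 CPM in AptCD4-LNT and 127 CPM in Untreated cells of the highest bins and 441 CPM in AptCD4-LNT and 431 CPM in Untreated cells of the lowest. Genes within a cell share its UMI total, and median UMIs per cell also differed over the bins, at 13680 in AptCD4-LNT and 6622 in Untreated cells of the highest and 20184.5 in AptCD4-LNT and 8432 in Untreated cells of the lowest.

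**Figure D1:**
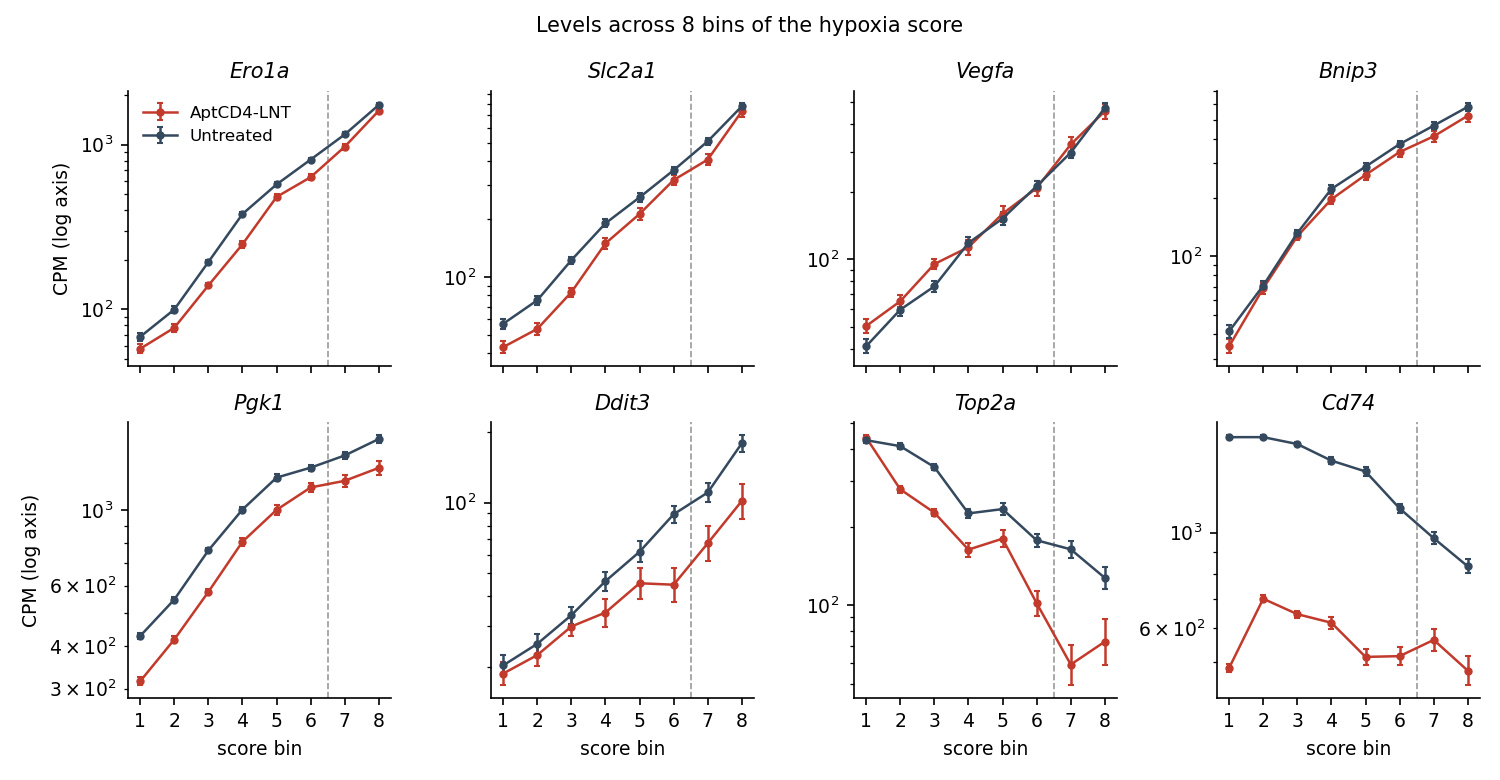
Levels of 8 genes (CPM, log axis, with 95% counting intervals) in 8 bins of the hypoxia score, from lowest to highest, with AptCD4-LNT in red and Untreated in dark blue; bins right of the dashed line are the hypoxia-high cells. Ero1a, Slc2a1, Vegfa, Bnip3, Pgk1 and Ddit3 are higher in the highest than in the lowest bin in both libraries, Top2a is lower, and Cd74 declines with the score mainly in the Untreated library.

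The question that the study design puts to these cells is whether they were more or less frequent after AptCD4-LNT. Hypoxia-high cells were 231 of 3380 tumour cells (6.83%, 6.01 to 7.74) in the AptCD4-LNT library, against 918 of 8111 (11.3%, 10.6 to 12.03) in the Untreated library. The share was 1.66-fold lower (1.43 to 1.92) in the AptCD4-LNT library, a log2 ratio of -0.73 (-0.94 to -0.52). Shares were also lower with the highest 1%, 5%, 20% and 50% of cells, with log2 ratios of -0.82, -0.83, -0.60 and -0.17. When each cell was first thinned to 3000 UMIs, 7.57% of AptCD4-LNT and 12.3% of Untreated tumour cells were taken. Without thinning, the median score of all tumour cells was 5.83 per 10000 in AptCD4-LNT and 6.77 in Untreated, and the upper 10% began at 23.4 in AptCD4-LNT and 30.6 in Untreated.

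Within ranges of UMIs per cell the difference had no constant direction. Among cells with 3000 to 6000 UMIs, hypoxia-high cells were 10 of 87 (11.5%) in the AptCD4-LNT library and 360 of 2383 (15.1%) in the Untreated library. From 6000 to 10000 UMIs they were 31 of 226 (13.7%) in AptCD4-LNT and 336 of 2782 (12.1%) in Untreated, and from 10000 to 15000 UMIs 81 of 794 (10.2%) in AptCD4-LNT and 151 of 1667 (9.06%) in Untreated. From 15000 to 25000 UMIs they were 95 of 1652 (5.75%) in AptCD4-LNT and 65 of 972 (6.69%) in Untreated, and at 25000 or more 14 of 621 (2.25%) in AptCD4-LNT and 6 of 307 (1.95%) in Untreated. The log2 ratios in these 5 ranges were -0.39, 0.18, 0.17, -0.22 and 0.21, and every interval included 0. With the selection made on thinned cells, the range from 15000 to 25000 UMIs was the exception, with a log2 ratio of -0.44 (-0.87 to -0.01). In both libraries the share was lower in deeper cells, and the Untreated library held most of the shallow ones.

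Total UMIs per cell depend on the library as well as on the cell, so cells were also ranked within their own library. In the shallowest of 4 equal rank groups hypoxia-high cells were 12.2% of AptCD4-LNT and 15.2% of Untreated tumour cells, a log2 ratio of -0.32 (-0.66 to 0.00). In the other 3 rank groups, from shallow to deep, they were 7.46%, 4.97% and 2.72% in AptCD4-LNT, against 12.8%, 10.6% and 6.66% in Untreated, with log2 ratios of -0.78, -1.09 and -1.29. The share was thus lower at matched rank, although in the shallowest group the interval reached 0.00. After thinning it was lower as well, while within ranges of UMIs the difference had no constant direction. Whether the libraries differ in the frequency of hypoxia-high cells, or in the RNA captured per cell, cannot be told apart with 1 library per group.

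**Figure D2:**
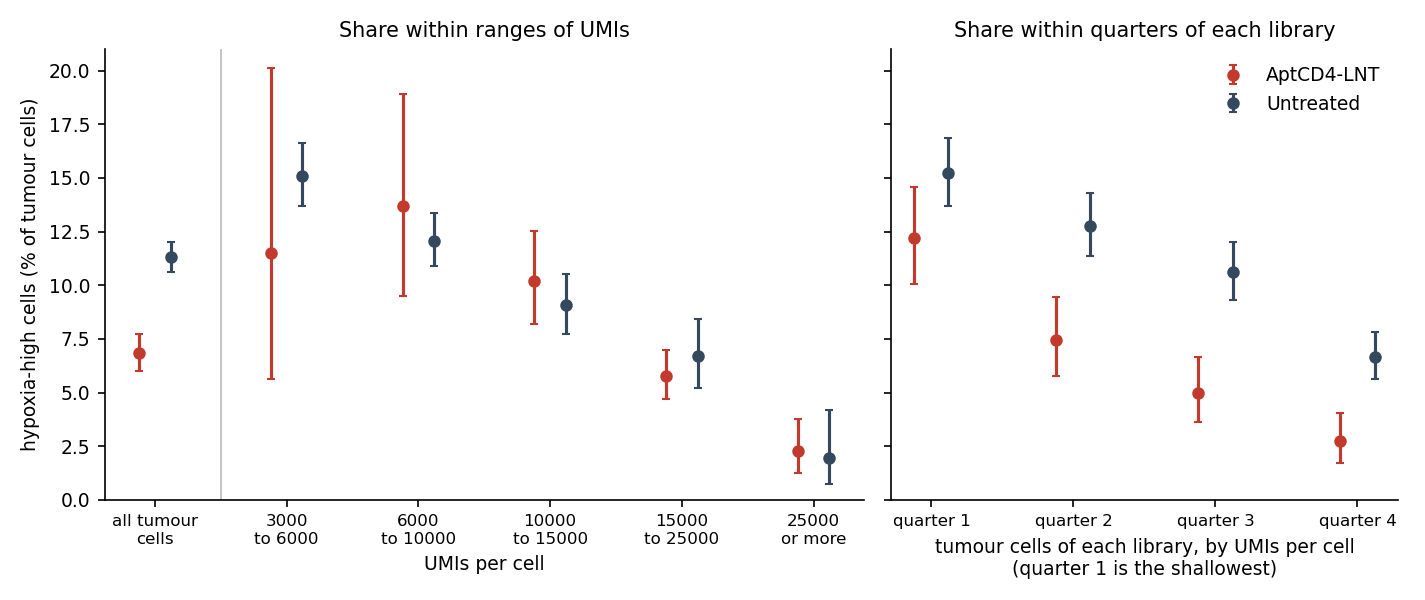
Hypoxia-high cells as a percentage of tumour cells, with exact 95% binomial intervals, in AptCD4-LNT (red) and Untreated (dark blue). The left panel gives all tumour cells and 5 ranges of UMIs per cell. The right panel gives 4 equal groups of each library's tumour cells ranked by UMIs. Intervals of the libraries overlap in every range of UMIs. AptCD4-LNT is lower at the same rank, with intervals that overlap in the shallowest group only.

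Within each library, the expression of hypoxia-high cells was compared with that of the other tumour cells. Genes were compared where the 2 groups averaged 20 CPM and held 30 or more UMIs together, and were counted as higher or lower at 1.5-fold. In the AptCD4-LNT library 377 of 6221 genes (6.06%) were higher and 661 (10.6%) lower, and in the Untreated library 392 of 6119 (6.41%) were higher and 754 (12.3%) lower. In both libraries 262 of 5952 genes (4.4%) were higher and 450 (7.56%) lower, and 0 went in opposite directions. The rule chose the cells within this contrast, so these counts and those of the lists below are descriptive. Relative to the median of genes with 100 or more UMIs, which lay at -0.10 in each library, the shared counts were 359 higher and 299 lower. The lower side thus outnumbered the higher side with scaling to total UMIs and not with centring. Over all genes compared the median log2 ratio was -0.06 in each library, the value against which list medians below may be read.

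The oxygen-sensing machinery itself was measured in 7 of its 9 listed genes, of which 2 were higher in both libraries. Egln1, the main oxygen sensor, was at 609 CPM in hypoxia-high and 169 CPM in other cells of the AptCD4-LNT library, and at 629 CPM in hypoxia-high and 204 CPM in other cells of the Untreated library, for log2 ratios of 1.85 (1.78 to 1.92) in AptCD4-LNT and 1.63 (1.58 to 1.67) in Untreated. Vhl was at 29.3 CPM in hypoxia-high and 13.9 CPM in other cells of the AptCD4-LNT library, and at 33.3 CPM in hypoxia-high and 16.1 CPM in other cells of the Untreated library. Hif1a, the alpha subunit that is regulated mainly as protein, differed less, with log2 ratios of 0.36 in the AptCD4-LNT and 0.34 in the Untreated library. Epas1 and Hif3a, the other alpha subunits, were at or near 0 in all 4 groups.

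Of 16 other HIF-induced genes, all were measured in both libraries, 14 were higher in both and 0 were lower, with a median log2 ratio of 1.59 in the AptCD4-LNT library and 1.74 in the Untreated library. Ero1a had log2 ratios of 2.92 (2.87 to 2.97) in AptCD4-LNT and 2.49 (2.46 to 2.53) in Untreated, and Slc2a1 had 2.53 in AptCD4-LNT and 2.20 in Untreated. Ankrd37, an ankyrin repeat protein, had 2.22 in AptCD4-LNT and 2.04 in Untreated, and Hilpda, which blocks fat breakdown in lipid droplets, had 1.99 in AptCD4-LNT and 1.95 in Untreated. The 2 members not counted in both were Bhlhe40, a transcriptional repressor, with 0.28 in the AptCD4-LNT and 0.73 in the Untreated library, and Narf, with 0.39 in AptCD4-LNT and 0.44 in Untreated.

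Glycolysis genes were higher along the pathway. Of 20 listed genes 16 were measured in both libraries, 13 were higher in both and 0 were lower, with medians of 0.89 in the AptCD4-LNT and 0.77 in the Untreated library. Pgk1, phosphoglycerate kinase, was at 1261 CPM in hypoxia-high and 549 CPM in other cells of the AptCD4-LNT library, and at 1519 CPM in hypoxia-high and 750 CPM in other cells of the Untreated library. Eno2, an enolase isoform, had log2 ratios of 2.32 (2.07 to 2.57) in AptCD4-LNT and 2.37 (2.20 to 2.53) in Untreated, while Eno1, the main enolase gene, had 0.65 in AptCD4-LNT and 0.43 in Untreated. Hk2, the inducible hexokinase, had 0.59 in AptCD4-LNT and 0.71 in Untreated, and Ldha, which turns pyruvate into lactate, had 0.81 in AptCD4-LNT and 0.73 in Untreated. Slc2a3, another glucose transporter, was at 0.288 CPM in AptCD4-LNT and 1.07 CPM in Untreated hypoxia-high cells and was too low to compare.

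Glycogen genes were mixed, with 3 of 5 measured members higher in both libraries. Gys1, glycogen synthase, was at 61.3 CPM in hypoxia-high and 17.3 CPM in other cells of the AptCD4-LNT library, and at 64.4 CPM in hypoxia-high and 20.6 CPM in other cells of the Untreated library. Pgm1 and Ugp2, which supply its substrate, were the other 2. Of the acid and lactate export genes 2 of 5 were higher in both, the carbonic anhydrase Car12, with log2 ratios of 1.72 in AptCD4-LNT and 1.27 in Untreated, and Bsg, a chaperone of lactate transporters, with 1.18 in AptCD4-LNT and 1.05 in Untreated. The lactate transporters differed little or were scarce, Slc16a1 at 137 CPM in hypoxia-high and 114 CPM in other cells of the AptCD4-LNT library and at 135 CPM in hypoxia-high and 133 CPM in other cells of the Untreated library, and Slc16a3 at 2.88 CPM in AptCD4-LNT and 3.73 CPM in Untreated hypoxia-high cells.

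Secreted vessel growth factors divided by gene. Of 13 listed genes 6 were measured in both libraries and 3 were higher in both: Vegfa with 2.10 in each library, the placental growth factor gene Pgf with 2.57 (2.42 to 2.71) in the AptCD4-LNT and 1.89 (1.77 to 2.01) in the Untreated library, and Apln, the gene of the vascular peptide apelin, with 1.79 in AptCD4-LNT and 1.40 in Untreated. Vegfb and Pdgfb differed by less than 1.5-fold in both. Angpt2, Edn1, Stc2 and Fgf2 were under 10 CPM in every group.

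The lists of collagen-modifying and mitophagy genes share members with the HIF-induced list, so their counts are not separate from it. Of 5 measured collagen-modifying enzymes 4 were higher in both libraries, with medians of 1.46 in the AptCD4-LNT and 1.18 in the Untreated library. The prolyl hydroxylase gene P4ha2 was at 156 CPM in hypoxia-high and 36.5 CPM in other cells of the AptCD4-LNT library, and at 174 CPM in hypoxia-high and 44.7 CPM in other cells of the Untreated library, and the lysyl hydroxylase gene Plod2 had log2 ratios of 1.46 in AptCD4-LNT and 1.33 in Untreated. The lysyl oxidase genes Lox, Loxl1, Loxl2 and Loxl4 were too low to compare, at 0.800 to 5.11 CPM. In the mitophagy list 6 of 9 measured genes were higher in both, of which 5 (Bnip3, Higd1a, Fam162a, Pdk1 and Ak4) are also in the HIF-induced list, as P4ha1 is among the collagen-modifying genes. The mitophagy receptors were both higher, Bnip3, with 1.99 in AptCD4-LNT and 1.87 in Untreated, and Bnip3l, with 1.26 in AptCD4-LNT and 1.24 in Untreated. Pdk1, which keeps pyruvate out of the mitochondrion, had 1.54 in AptCD4-LNT and 1.15 in Untreated, and Pink1, of the other main mitophagy route, was at 16.7 CPM in AptCD4-LNT and 16.9 CPM in Untreated hypoxia-high cells and was too low to compare.

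Of the iron handling list 2 of 4 genes measured in both libraries were higher in both, Hmox1 and Ftl1. Hmox1, the haem-degrading enzyme, was at 553 CPM in hypoxia-high and 90.6 CPM in other cells of the AptCD4-LNT library, and at 769 CPM in hypoxia-high and 162 CPM in other cells of the Untreated library. In the AptCD4-LNT hypoxia-high cells 5 of 231 cells gave 41.5% of the Hmox1 UMIs, against 9.54% from 5 cells in the Untreated library. The ferritin genes Fth1 and Ftl1 had log2 ratios of 0.75 and 0.59 in the AptCD4-LNT library and 0.50 and 0.90 in the Untreated library, and Fth1 in the Untreated library was under 1.5-fold. Of the lipid droplet list 2 of 3 genes were higher in both libraries, Hilpda and Plin2, a droplet coat protein, which had 0.95 in AptCD4-LNT and 0.89 in Untreated. G0s2, an inhibitor of fat breakdown, was lower in the Untreated library, at 18.5 CPM in hypoxia-high and 29.0 CPM in other cells, and too low to compare in the AptCD4-LNT library.

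Cholesterol synthesis genes were the metabolic list furthest on the lower side. Of 14 listed genes 11 were measured in both libraries, 7 were lower in both and 0 were higher, with medians of -1.09 in the AptCD4-LNT and -1.06 in the Untreated library. Idi1, an early enzyme of isoprenoid synthesis, was at 11.5 CPM in hypoxia-high and 48.9 CPM in other cells of the AptCD4-LNT library, and at 7.87 CPM in hypoxia-high and 37.2 CPM in other cells of the Untreated library. Fdps, a later enzyme of the same route, had log2 ratios of -1.54 in AptCD4-LNT and -1.64 in Untreated. Sqle differed little, with -0.24 in AptCD4-LNT and -0.01 in Untreated, and Fdft1 had -0.07 in AptCD4-LNT and -0.23 in Untreated.

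Respiratory chain genes differed less. Of 21 nuclear genes 3 were lower in both libraries and 0 were higher, and all 21 ratios were below 0 in each library, with medians of -0.33 in the AptCD4-LNT and -0.41 in the Untreated library. Those 3 were Ndufa4, with -1.26 in AptCD4-LNT and -0.95 in Untreated, Sdhb, with -0.86 in AptCD4-LNT and -0.88 in Untreated, and Ndufb8, with -0.74 in AptCD4-LNT and -0.79 in Untreated. Of the mitochondrially encoded genes 10 were measured in both libraries and 0 were apart by 1.5-fold in both, with medians of -0.05 in AptCD4-LNT and -0.19 in Untreated. The cytochrome b gene mt-Cytb had -0.51 in AptCD4-LNT and -0.59 in Untreated, whereas mt-Co1, of the terminal oxidase, had 0.28 in AptCD4-LNT and 0.29 in Untreated.

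**Figure D3:**
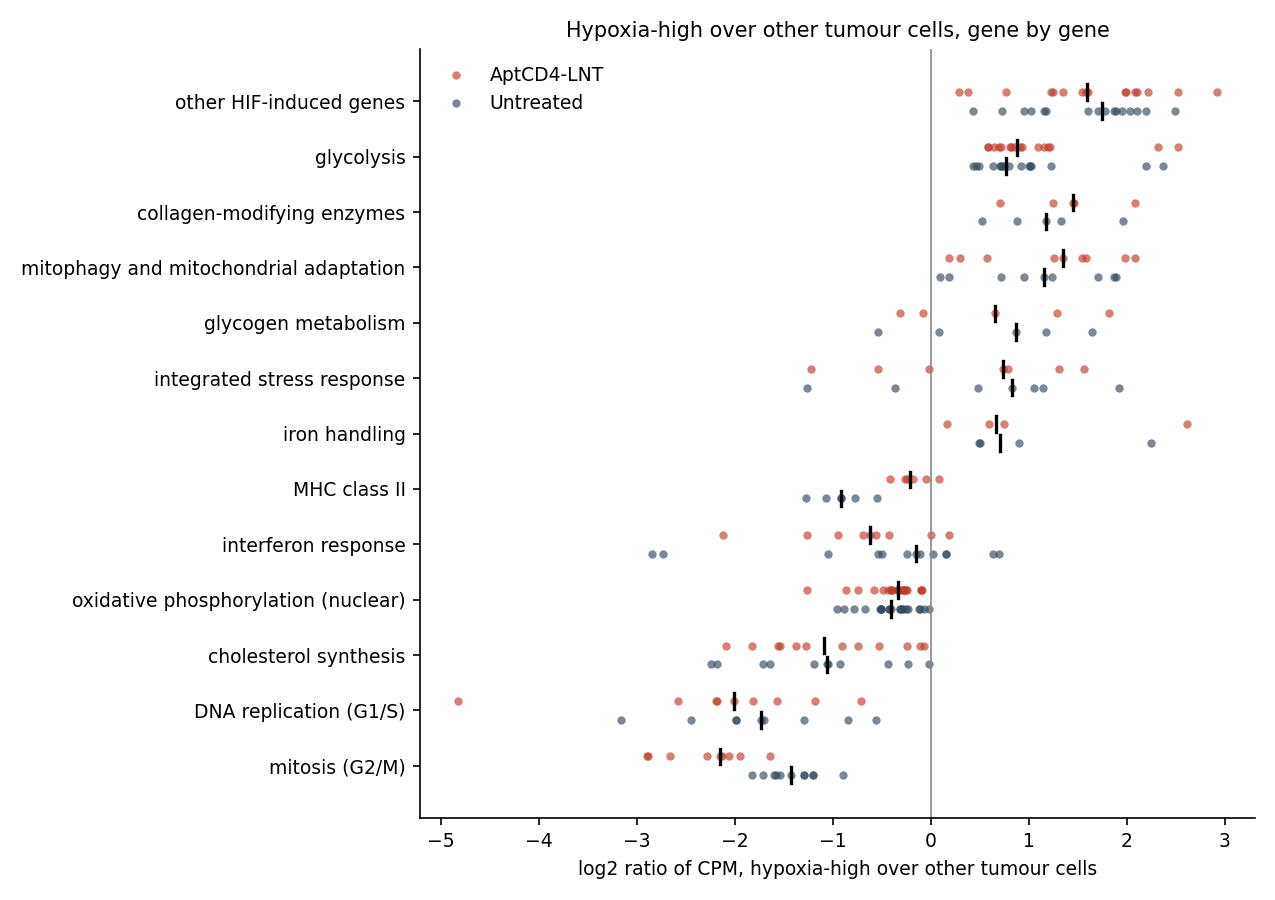
Log2 ratio of CPM, hypoxia-high over other tumour cells, for each measured gene (points) of 13 lists in AptCD4-LNT (red, upper row of each list) and Untreated (dark blue, lower row); black bars are list medians. HIF-induced, glycolysis, collagen-modifying and mitophagy genes lie right of 0 in both libraries, cholesterol, replication and mitosis genes lie left of it, and MHC class II genes lie further left in Untreated.

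Cell cycle genes were lower in hypoxia-high cells. Of the DNA replication genes 8 of 9 measured in both libraries were lower in both, with medians of -2.01 in the AptCD4-LNT and -1.73 in the Untreated library. Of the mitosis genes 9 of 9 were lower in both, with medians of -2.15 in AptCD4-LNT and -1.42 in Untreated. Top2a was at 64.4 CPM in hypoxia-high and 281 CPM in other cells of the AptCD4-LNT library, and at 148 CPM in hypoxia-high and 340 CPM in other cells of the Untreated library. Rrm2, a subunit of the enzyme that makes deoxyribonucleotides, was at 2.01 CPM in hypoxia-high and 56.9 CPM in other cells of the AptCD4-LNT library, and at 8.004 CPM in hypoxia-high and 71.6 CPM in other cells of the Untreated library. After thinning, a UMI of Mki67 or Top2a was found in 8.66% (5.37 to 13.1) of AptCD4-LNT and 14.1% (11.9 to 16.5) of Untreated hypoxia-high cells, against 27.1% (25.5 to 28.6) of AptCD4-LNT and 30.3% (29.2 to 31.3) of Untreated other tumour cells. Without thinning these shares were 22.9% of AptCD4-LNT and 23.1% of Untreated hypoxia-high cells and 51.5% of AptCD4-LNT and 44.0% of Untreated other tumour cells. In neutrophils, which do not divide once mature, the thinned shares were 2.41% (2 of 83 cells) in the AptCD4-LNT and 16.7% (9 of 54 cells) in the Untreated library, at median depths of 3815 UMIs in AptCD4-LNT and 4629 UMIs in Untreated, or 7.23% in AptCD4-LNT and 20.4% in Untreated without thinning. The thinned Untreated share in hypoxia-high cells was therefore not above that of neutrophils, whose interval was wide (7.9 to 29.3%). In the AptCD4-LNT library the thinned share was above that of neutrophils, but the intervals overlapped (5.37 to 13.1% against 0.29 to 8.43%). Without thinning the Untreated intervals also overlapped, at 20.4 to 26.0% in hypoxia-high cells and 10.6 to 33.5% in neutrophils. Only the AptCD4-LNT intervals without thinning were apart, at 17.7 to 28.9% and 2.70 to 15.1%, in cells of unlike depth.

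Cell cycle inhibitors and stress genes included several that were higher. Ccng2, a cyclin linked to growth arrest, was at 161 CPM in hypoxia-high and 65.3 CPM in other cells of the AptCD4-LNT library, and at 165 CPM in hypoxia-high and 53.4 CPM in other cells of the Untreated library. The inhibitor Cdkn1a had log2 ratios of 0.84 in AptCD4-LNT and 1.42 in Untreated, and 2 of 6 measured genes of the list were higher in both. In the integrated stress response list 4 of 7 were higher in both and 1 was lower. Ddit3, the transcription factor CHOP, was at 80.8 CPM in hypoxia-high and 27.3 CPM in other cells of the AptCD4-LNT library, and at 140 CPM in hypoxia-high and 37.2 CPM in other cells of the Untreated library. Atf4, its inducer, had 0.79 in AptCD4-LNT and 1.05 in Untreated, while Phgdh, the entry enzyme of serine synthesis and a known Atf4 target, had -1.22 in AptCD4-LNT and -1.26 in Untreated. Of 7 unfolded protein response genes 1 was higher in both libraries, the co-chaperone gene Dnajb9 with 1.04 in AptCD4-LNT and 0.73 in Untreated, and the chaperone gene Hspa5 had 0.32 in AptCD4-LNT and 0.01 in Untreated.

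Antigen presentation and interferon genes gave no list that moved as a whole in both libraries. Of 6 measured MHC class II genes 0 were lower in the AptCD4-LNT and 5 in the Untreated library, with medians of -0.21 in AptCD4-LNT and -0.91 in Untreated. Cd74, the invariant chain, was at 529 CPM in hypoxia-high and 599 CPM in other cells of the AptCD4-LNT library, and at 911 CPM in hypoxia-high and 1558 CPM in other cells of the Untreated library. Macrophage markers, whose cells make much of this RNA, summed to 51.8 CPM in hypoxia-high and 41.9 CPM in other cells of the AptCD4-LNT library, and to 116 CPM in hypoxia-high and 120 CPM in other cells of the Untreated library, and their part in the values was not tested. Of the interferon response genes 5 of 9 were lower and 0 higher in the AptCD4-LNT library, with a median of -0.62. In the Untreated library 3 of 13 were lower and 2 higher, with a median of -0.15. Among 9 measured in both libraries 2 were lower in both, Iigp1 and Cxcl10. Iigp1, an immunity-related GTPase, had -1.26 in AptCD4-LNT and -1.05 in Untreated. The chemokine gene Cxcl10 had -2.11 (-2.46 to -1.79) in AptCD4-LNT and -2.84 (-3.10 to -2.60) in Untreated. Cxcl10 was at 21.6 CPM in AptCD4-LNT and 18.1 CPM in Untreated hypoxia-high cells, and 5 cells gave 64.0% of these UMIs in AptCD4-LNT and 36.8% in Untreated. MHC class I genes had 0 of 8 apart in both libraries, and B2m had 0.43 in AptCD4-LNT and 0.34 in Untreated.

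Of 12 measured secreted immune factors 1 was higher in both libraries, Il1a, an alarmin cytokine, at 124 CPM in hypoxia-high and 63.4 CPM in other cells of the AptCD4-LNT library, and at 180 CPM in hypoxia-high and 95.4 CPM in other cells of the Untreated library. Among epithelial genes 2 of 8 were higher in both, Krt19, with log2 ratios of 1.82 in AptCD4-LNT and 1.29 in Untreated, and Krt17, with 0.88 in AptCD4-LNT and 1.05 in Untreated. Epcam had 0.27 in the AptCD4-LNT and -0.29 in the Untreated library. Of the mesenchymal transition genes 0 of 6 were apart in both libraries, with Vim at -0.37 in AptCD4-LNT and -0.38 in Untreated. In the immediate early list, which also marks tissue dissociation, 0 of 13 were apart in both, with medians of -0.24 in AptCD4-LNT and -0.01 in Untreated.

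Outside the lists, the 10 genes with the largest shared difference on the higher side were Tnfrsf9, Espn, Nos2, Ackr3, Smox, Mt1, Mt2, Jmjd6, Zfand2a and Prelid2. Tnfrsf9, the costimulatory receptor 4-1BB known from T cells, was at 80.0 CPM in hypoxia-high and 11.7 CPM in other cells of the AptCD4-LNT library, and at 137 CPM in hypoxia-high and 25.3 CPM in other cells of the Untreated library. Its UMIs were spread over 80 of 231 AptCD4-LNT and 355 of 918 Untreated hypoxia-high cells. The T cell genes Cd3e and Cd3d had no UMI in AptCD4-LNT and were at 0.400 and 0.800 CPM in Untreated hypoxia-high cells. Espn, an actin-bundling protein, had log2 ratios of 2.95 (2.82 to 3.08) in AptCD4-LNT and 2.32 (2.24 to 2.39) in Untreated. Nos2, the inducible nitric oxide synthase, was at 240 CPM in hypoxia-high and 42.1 CPM in other cells of the AptCD4-LNT library, and at 269 CPM in hypoxia-high and 65.6 CPM in other cells of the Untreated library. The metallothionein genes Mt1 and Mt2 had 1.65 and 1.58 in the AptCD4-LNT and 1.92 and 1.76 in the Untreated library, and Ackr3, a scavenging chemokine receptor, had 1.87 in AptCD4-LNT and 1.83 in Untreated. On the lower side the 10 were Pclaf, H1f5, Uhrf1, Tk1, Spc24, Hmgn3, Incenp, Elovl6, Pcolce2 and Kif11. Pclaf, which binds the replication clamp, had -3.91 in AptCD4-LNT and -2.80 in Untreated, Kif11, a spindle motor, had -2.91 in AptCD4-LNT and -1.62 in Untreated, and Elovl6, a fatty acid elongase, had -1.97 in AptCD4-LNT and -1.71 in Untreated.

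Markers of other cell types were summed in the same cells. Of 15 markers of T and NK cells, B cells, endothelium, pericytes and red blood cells 0 were measured well enough to compare. T and NK markers summed to 0.575 CPM in AptCD4-LNT and 3.74 CPM in Untreated hypoxia-high cells, against 1.43 CPM in AptCD4-LNT and 3.16 CPM in Untreated other tumour cells. Endothelial markers summed to 1.15 CPM in AptCD4-LNT and 3.74 CPM in Untreated hypoxia-high cells, against 3.86 CPM in AptCD4-LNT and 3.99 CPM in Untreated other tumour cells. B cell markers were at 0.146 CPM or less, pericyte markers at 7.12 CPM or less and red blood cell markers at 12.6 CPM or less in all 4 groups. In AptCD4-LNT hypoxia-high cells Cd3e, Cd3d, Nkg7, Cd79a, Ms4a1, Kdr, Emcn, Cspg4 and Hba-a1 had no UMI, and in Untreated ones Ms4a1 had none. Neutrophil markers summed to 85.1 CPM in AptCD4-LNT and 119 CPM in Untreated hypoxia-high cells, against 77.6 CPM in AptCD4-LNT and 126 CPM in Untreated other tumour cells. Fibroblast markers summed to 256 CPM in AptCD4-LNT and 102 CPM in Untreated hypoxia-high cells, against 242 CPM in AptCD4-LNT and 93.8 CPM in Untreated other tumour cells. Osteoclast markers summed to 312 CPM in AptCD4-LNT and 226 CPM in Untreated hypoxia-high cells, against 336 CPM in AptCD4-LNT and 311 CPM in Untreated other tumour cells. Acp5, an acid phosphatase of that list, was higher by 1.5-fold in both libraries, at 64.4 CPM in hypoxia-high and 30.002 CPM in other cells of the AptCD4-LNT library, and at 80.6 CPM in hypoxia-high and 41.9 CPM in other cells of the Untreated library. Most of the osteoclast sum was Mmp9, with Ctsk at 4.31 CPM in AptCD4-LNT and 1.07 CPM in Untreated hypoxia-high cells.

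Hypoxia-high cells of the AptCD4-LNT library were then compared with those of the Untreated library. Of 5979 genes, 189 (3.16%) were higher and 134 (2.24%) lower by 1.5-fold in the AptCD4-LNT library, with a median log2 ratio of 0.04 over all genes. In the other tumour cells the counts were 119 (1.89%) higher and 107 (1.7%) lower of 6288. Both comparisons use the same 2 libraries and cells of different depth, so the values are given side by side.

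Few genes of the hypoxia programme were apart by 1.5-fold. Both groups were taken above the same score threshold, so like levels of genes that follow the score are partly set by the selection. Of 16 other HIF-induced genes 0 were higher and 1 was lower in AptCD4-LNT hypoxia-high cells, with a median of -0.12. In the other tumour cells 1 of 15 was higher and 2 were lower, with a median of -0.30. Of 16 glycolysis genes 0 were apart in hypoxia-high cells, with a median of -0.12, and 0 of 15 in the other tumour cells, with a median of -0.19. Vegfa was at 377 CPM in AptCD4-LNT and 375 CPM in Untreated hypoxia-high cells, a log2 ratio of 0.01 (-0.09 to 0.10), and Ldha at 1404 CPM in AptCD4-LNT and 1517 CPM in Untreated. The 1 HIF-induced gene lower in hypoxia-high cells was Hilpda, at 197 CPM in AptCD4-LNT and 348 CPM in Untreated. Its log2 ratio was -0.82 (-0.95 to -0.70), with -0.86 in the other tumour cells. Pgf stood at 152 CPM in AptCD4-LNT and 106 CPM in Untreated hypoxia-high cells, a log2 ratio of 0.52, which is under 1.5-fold, with -0.15 in the other tumour cells. The common threshold fixes the sum of the score, which is mostly Ndrg1, and not its single genes. Of the 5 score genes Gbe1 was lower by 1.5-fold in AptCD4-LNT hypoxia-high cells, at 82.0 CPM in AptCD4-LNT and 132 CPM in Untreated, a log2 ratio of -0.69 (-0.88 to -0.50).

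Interferon response genes were lower in AptCD4-LNT hypoxia-high cells. Of 10 measured genes 9 were lower and 0 higher, with a median of -1.16, and in the other tumour cells 8 of 10 were lower, with a median of -1.15. Igtp, an interferon-induced GTPase, was at 29.0 CPM in AptCD4-LNT and 111 CPM in Untreated hypoxia-high cells, a log2 ratio of -1.94 (-2.25 to -1.64). The guanylate-binding proteins Gbp2b, Gbp3 and Gbp4, which attack intracellular microbes, were among the 10 lowest genes outside the lists, and Gbp2b was at 122 CPM in AptCD4-LNT and 424 CPM in Untreated hypoxia-high cells. Irf1, an interferon-induced transcription factor, had -0.71 (-0.85 to -0.57) in hypoxia-high cells and 0.09 (0.06 to 0.11) in the other tumour cells, and Cxcl10 was at 21.6 CPM in AptCD4-LNT and 18.1 CPM in Untreated hypoxia-high cells and too low to compare.

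MHC class II genes were lower in 5 of 6 cases in AptCD4-LNT hypoxia-high cells, with a median of -0.77, and in 6 of 6 in the other tumour cells, with a median of -1.48. The 6 ratios ranged from -0.86 to -0.50 in hypoxia-high and from -1.54 to -1.38 in other tumour cells, so the ranges did not overlap. H2-Eb1 was at 215 CPM in AptCD4-LNT and 303 CPM in Untreated hypoxia-high cells, and at 222 CPM in AptCD4-LNT and 633 CPM in Untreated other tumour cells. Lyz2, a macrophage lysozyme gene, was at 15.2 CPM in AptCD4-LNT and 58.2 CPM in Untreated hypoxia-high cells. In other tumour cells it was at 16.5 CPM in AptCD4-LNT and 66.6 CPM in Untreated. Its log2 ratios were -1.93 in hypoxia-high and -2.01 in other tumour cells. All 7 listed macrophage markers together summed to 51.8 CPM in AptCD4-LNT and 116 CPM in Untreated hypoxia-high cells. In other tumour cells they summed to 41.9 CPM in AptCD4-LNT and 120 CPM in Untreated. The part of macrophage RNA in the class II values was not tested. In the MHC class I list 3 of 8 genes were lower, with a median of -0.43, among them the peptide transporter gene Tap1 at 80.0 CPM in AptCD4-LNT and 149 CPM in Untreated hypoxia-high cells.

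Mitosis genes were lower in AptCD4-LNT hypoxia-high cells in 6 of 7 cases, with a median of -1.20, and in 0 of 12 in the other tumour cells, with a median of -0.22. Birc5, a survivin gene of the chromosomal passenger complex, was at 24.7 CPM in AptCD4-LNT and 71.1 CPM in Untreated hypoxia-high cells, and Cdk1 at 28.8 CPM in AptCD4-LNT and 66.0 CPM in Untreated. These values rest on few dividing cells. In AptCD4-LNT hypoxia-high cells 1 cell gave 34.8% and 5 cells gave 73.2% of the Top2a UMIs, against 3.78% from 1 cell and 16.7% from 5 cells in the Untreated library. The thinned shares of cells with Mki67 or Top2a, given above, had overlapping intervals, and with the selection made on thinned cells the median of the list was -0.74.

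Secreted immune factors were higher in 6 of 12 cases and lower in 1 in AptCD4-LNT hypoxia-high cells, with a median of 0.62, and higher in 5 of 11 and lower in 1 in the other tumour cells, with a median of 0.52. Csf3, the granulocyte growth factor, was at 281 CPM in AptCD4-LNT and 158 CPM in Untreated hypoxia-high cells, and Ccl2, which draws monocytes, at 171 CPM in AptCD4-LNT and 91.8 CPM in Untreated. In AptCD4-LNT hypoxia-high cells 5 cells gave 33.3% of the Csf3 and 34.6% of the Ccl2 UMIs, against 11.6% and 21.2% from 5 cells in the Untreated library. Cxcl1, a neutrophil attractant, was at 936 CPM in AptCD4-LNT and 564 CPM in Untreated hypoxia-high cells and at 1437 CPM in AptCD4-LNT and 653 CPM in Untreated other tumour cells. Cxcl2, of the same family, was at 44.0 CPM in AptCD4-LNT and 103 CPM in Untreated hypoxia-high cells, and 5 cells gave 43.8% of these UMIs in AptCD4-LNT and 36.4% in Untreated. Nt5e, the surface enzyme CD73, was at 350 CPM in AptCD4-LNT and 191 CPM in Untreated hypoxia-high cells, a log2 ratio of 0.87 (0.76 to 0.98), against 0.23 in the other tumour cells.

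Immediate early genes, which respond to handling of the tissue, were higher in 4 of 13 cases in AptCD4-LNT hypoxia-high cells, with a median of 0.36, and in 10 of 13 in the other tumour cells, with a median of 0.67. Fosb was at 649 CPM in AptCD4-LNT and 373 CPM in Untreated hypoxia-high cells. Fibroblast markers were higher in 4 of 4 cases, with a median of 1.36, and in 3 of 3 in the other tumour cells, with a median of 1.43. Col3a1 was at 98.6 CPM in AptCD4-LNT and 41.6 CPM in Untreated hypoxia-high cells, below the limit of the rule. Mesenchymal transition genes, several of which fibroblasts also make, had a median of 0.40, with 2 of 6 higher, Fn1 at 3975 CPM in AptCD4-LNT and 2587 CPM in Untreated hypoxia-high cells and Mmp14 at 124 CPM in AptCD4-LNT and 82.4 CPM in Untreated. The part of fibroblast RNA in these values was not tested.

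Outside the lists, the 10 genes furthest up in AptCD4-LNT hypoxia-high cells were Mmp13, Cebpd, Mmp10, S100a4, Col12a1, Bag3, Cbr2, Ctla2a, Slco2a1 and Sphk1. Mmp13, a collagenase, was at 290 CPM in AptCD4-LNT and 86.3 CPM in Untreated hypoxia-high cells, a log2 ratio of 1.75 (1.603 to 1.89), with 149 CPM in AptCD4-LNT and 123 CPM in Untreated other tumour cells. Cebpd, a transcription factor of acute inflammation, was at 189 CPM in AptCD4-LNT and 65.1 CPM in Untreated hypoxia-high cells, with 63.0 CPM in AptCD4-LNT and 40.9 CPM in Untreated other tumour cells. S100a4, linked to tumour cell motility, was at 409 CPM in AptCD4-LNT and 148 CPM in Untreated hypoxia-high cells and at 851 CPM in AptCD4-LNT and 398 CPM in Untreated other tumour cells. For Mmp10 and Ctla2a, 1 cell gave 43.7% and 39.1% of the UMIs of AptCD4-LNT hypoxia-high cells, and 5 cells gave 61.2% and 62.4%. For Col12a1, 5 cells gave 35.5%. The 10 furthest down were Ulk4, Gsta4, Gbp3, Gbp2b, Gbp4, Cdca8, Tpx2, Irgm1, Elf3 and Creg1. Ulk4, a kinase-like protein, was at 9.78 CPM in AptCD4-LNT and 55.4 CPM in Untreated hypoxia-high cells, a log2 ratio of -2.50, with -2.32 in the other tumour cells. Gsta4, a glutathione transferase that clears lipid aldehydes, was at 9.49 CPM in AptCD4-LNT and 45.6 CPM in Untreated hypoxia-high cells, a log2 ratio of -2.27, with -0.76 in the others.

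**Figure D4:**
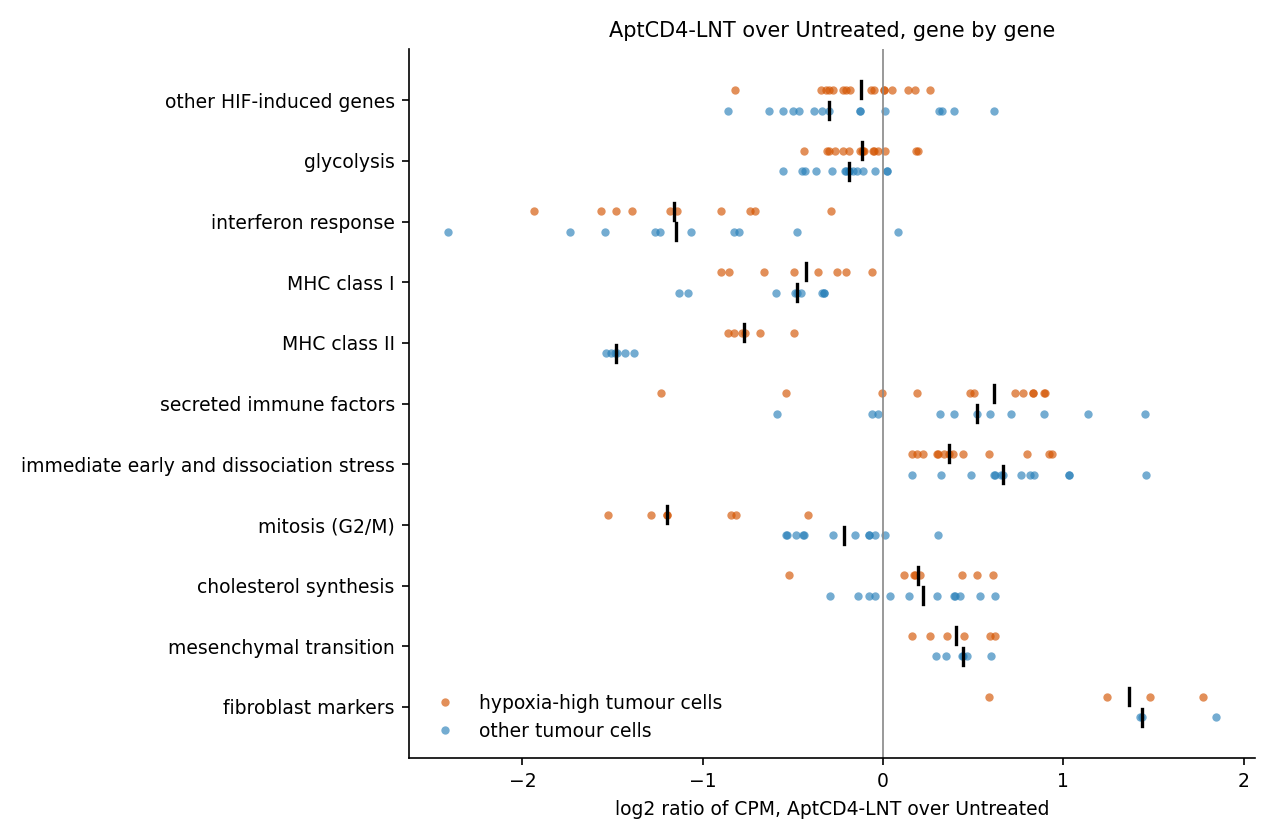
Log2 ratio of CPM, AptCD4-LNT over Untreated, for each measured gene (points) of 11 lists in hypoxia-high tumour cells (orange, upper row of each list) and other tumour cells (blue, lower row); black bars are list medians. Interferon genes lie left of 0 to a like extent in both, with medians of -1.16 and -1.15, MHC class II genes lie closer to 0 in hypoxia-high cells, and mitosis genes lie further left there.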

How the data were processed

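UMI counts per gene and cell barcode were deposited by the authors as a matrix for each library, not normalized, and Cell Ranger 7.2.0 with GRCm39 is named in the submitters' processing notes. The aligner settings and the cell caller are not given in the sources used here. Rows with the same gene symbol were added, which left 54456 symbols of 55357 features, and 0 columns were unused. Deposited barcodes held 98968100 UMIs in the AptCD4-LNT library (8931 barcodes, median 8612) and 131295224 in the Untreated library (20040 barcodes, median 4640.5).

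Cells were selected as described above. The members and the gene lists were chosen with earlier results of these data known. UMIs were summed over the cells of a group and scaled to CPM. A ratio was given for genes averaging 20 CPM in the groups compared with 30 or more UMIs, with an exact conditional 95% interval for 2 Poisson counts, and shares have exact Clopper-Pearson intervals. Droplet UMIs clump by cell, so the intervals are too narrow for differences between cells. With 1 library per group no p-value was computed, and variation between tumours is unknown. Depth was matched by thinning each cell to 3000 UMIs without replacement, by ranges of UMIs and by 4 equal rank groups within a library.

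Besides listed genes, the text names up to 10 genes in each direction with the largest ratio (for hypoxia-high over other cells, the smaller ratio of the 2 libraries) and an interval without 0. Doublets were kept. Scrublet, run in scanpy 1.11.5, marked 202 barcodes (2.28%) in the AptCD4-LNT library and 1491 (7.46%) in the Untreated library, of which 22 and 316 were tumour cells, and their removal was an alternative. Other alternatives changed the share of cells taken, the score genes, the thresholds on cells and genes, and the scaling. Python 3.11.15, numpy 2.4.6, scipy 1.17.1 and pandas 2.3.3 were used. Only the intervals and the 1.5-fold calls were tested on simulated data, drawn as Poisson counts per gene. Such counts hold no clumping by cell, no selection on a score and no thinning, so that test does not bear on those steps.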

Additional observations from a re-analysis of the deposited data

Results flagged for a closer look

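Among 259 genes looked at, 2 stood apart from the others by being higher in hypoxia-high cells of the AptCD4-LNT library by 1.5-fold or more while their ratio in the Untreated library was below 0, with both intervals apart from 0. Cxcl3, a neutrophil attractant, had a log2 ratio over the other tumour cells of 2.61 in the AptCD4-LNT library and -0.31 in the Untreated library. It was at 35.4 CPM in AptCD4-LNT and 25.3 CPM in Untreated hypoxia-high cells, against 5.79 and 31.5 CPM in the other tumour cells. Mmp13, a collagenase, had 0.96 and -0.51. The difference between the libraries was not tested, since each is a single library. In AptCD4-LNT hypoxia-high cells 1 cell gave 25.2% of the Cxcl3 UMIs and 5 cells gave 70.7%, with a UMI in 25 of 231 cells. For Mmp13, 1 cell gave 9.93% and 5 cells gave 28.5%, with a UMI in 137 of 231 cells. Of the same 259 genes 11 had opposite directions with intervals apart from 0.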

How the results depend on the processing

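No paired analysis was possible because each group is 1 library and the results come from no test. The share of hypoxia-high cells remained lower in the AptCD4-LNT library under every alternative run. With 6000 or more UMIs per cell, an alternative chosen after seeing the data, its log2 ratio was -0.47 (-0.68 to -0.26). That value came from 265 AptCD4-LNT and 637 Untreated cells. Within single ranges of UMIs the direction of the difference varied, as given above. Without Ndrg1 in the score, 275 genes were lower in hypoxia-high than in other tumour cells of both libraries. That count was 681 against the lower 50% of tumour cells and 299 with centring. With the highest 5% of cells, 293 genes were higher in AptCD4-LNT than in Untreated hypoxia-high cells. Thresholds on genes moved all counts by construction. Genes higher and lower in hypoxia-high cells, then higher and lower in AptCD4-LNT hypoxia-high cells, numbered 412, 902, 554 and 431 at 5 CPM, and 1227, 1552, 2691 and 1640 with 1 or more UMI in each group. At 50 CPM they were 159, 205, 88 and 61, and at 2-fold 79, 120, 26 and 39. Of 880 list medians under the alternatives 184 moved and 0 reversed, and of 8723 single gene values 1572 moved and 0 reversed. A value counted as reversed only if it was 1.5-fold or more in the main setting and changed sign. Sign changes of smaller values were not counted as reversed. The cause of these moves was not tested unless stated. Leaving out a replicate was not possible with 1 library per group. The 231 AptCD4-LNT cells limit the precision for genes made by few cells.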
